A study of Rattus norvegicus with 2 samples.

Results

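Pulmonary surfactant lines the alveoli of the lung and is made by alveolar type 2 cells, which store it in lamellar bodies before release. The genes described here are 9 genes of that system, measured by 15 probes, out of 15611 named genes on 20417 named probes: Sftpa1, Sftpb, Sftpc and Sftpd, which encode the surfactant proteins, and Abca3, Lamp3, Napsa, Lpcat1 and Pla2g1b, which encode proteins of the lamellar body, of proprotein processing or of surfactant lipid turnover. They were chosen by name, as the probes whose annotated symbol or current synonym is one of these genes, and all 9 were found.

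Lung RNA was total RNA of rat lung cells, untreated and taken without culture, in 2 samples (replicates 1 and 2) labelled with Cy3. It was set against mix1, labelled with Cy5, which combined cultured bone marrow cells (in αDMEM with heat-inactivated fetal bovine serum) and cultured primary ear fibroblasts (in DMEM with such serum), also of rat. Each sample was hybridised with mix1 on a 2-colour Agilent array, and every value below is a log2 ratio of lung over mix1. The labels give no strain, age or sex, do not say whether the lung samples came from separate animals, and put no replicate of mix1 on the arrays, so p-values cover the spread between these 2 arrays, which may be technical, and leave out that of mix1.

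The sign of the ratios is likely and not stated: the submitters say that lung was compared with mix1 and name no numerator, and the sign was settled with the surfactant protein genes themselves. For Sftpa1, Sftpb, Sftpc and Sftpd only the size of the ratio and its spread are therefore described, with no test. For every other gene, higher means higher in lung under that sign, and with the sign turned each such word would be the opposite. Lung carried Cy3 on both arrays, so effects of the dye and of the RNA cannot be told apart.

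Surfactant is mostly phosphatidylcholine with a small share of protein. SP-B and SP-C, encoded by Sftpb and Sftpc, are small hydrophobic peptides that spread the lipid film and are cut from larger proproteins. SP-A and SP-D, encoded by Sftpa1 and Sftpd, are collectins, soluble lectins with a collagen-like stalk that bind microbes. Lamellar bodies are lysosome-related organelles, filled with lipid by the transporter ABCA3.

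The lung label was set beside cell type markers, read under the sign taken above. Type 2 markers share their cell type with the genes that settled the sign, so their direction is no separate check of it. Of 11 other alveolar type 2 markers, 8 were higher in lung (median 4.20), as were 6 of 6 type 1, 6 of 7 airway and 5 of 5 endothelial markers (medians 4.28, 4.42 and 4.31), whereas 6 of 6 fibroblast and marrow stromal markers were lower (median -4.97, range -7.25 to -1.01). The type 2 markers that were lower were Egfl6, Scd and Fabp5. Of 6 macrophage markers, 4 were higher and 2, Msr1 and Adgre1, were lower (median 1.21). These counts stand against 32.9% of all genes higher and 49.7% lower in limma's moderated test at a Benjamini-Hochberg adjusted p under 0.05. With the median of each array subtracted, which raises every ratio by about the same amount, the share of calls that were lower fell to 49.7%, against 60.2% as deposited. In RNA of mixed cells, more cells of a type and more RNA per cell cannot be told apart, here and in all that follows.

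The promoters of the members are shown first, because the genes fell into separate groups both by their ratio and by the base composition before their start. RefSeq promoter windows of assembly GRCr8 were found for 6 of the 9 genes, and none was used for Sftpc, Sftpd and Napsa. The 250 bases before the start are printed 5′ to 3′. The first set below has fewer CpG dinucleotides than the second. In the first set, capitals mark matches to CTCAAG (the core bound by NKX2-1, the lung and thyroid homeobox factor) on either strand. They also mark TNTTTNC (forkhead factors such as FOXA1 and FOXA2) on either strand, and TATAA on the gene's own strand.
Sftpb, chr4:105917338-105917587, + strand: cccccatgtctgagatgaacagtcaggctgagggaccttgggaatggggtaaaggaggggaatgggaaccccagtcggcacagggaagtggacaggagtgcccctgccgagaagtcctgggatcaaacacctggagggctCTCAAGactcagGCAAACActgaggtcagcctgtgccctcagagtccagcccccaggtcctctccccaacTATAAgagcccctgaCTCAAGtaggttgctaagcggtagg
Sftpa1, chr16:17042014-17042263, + strand: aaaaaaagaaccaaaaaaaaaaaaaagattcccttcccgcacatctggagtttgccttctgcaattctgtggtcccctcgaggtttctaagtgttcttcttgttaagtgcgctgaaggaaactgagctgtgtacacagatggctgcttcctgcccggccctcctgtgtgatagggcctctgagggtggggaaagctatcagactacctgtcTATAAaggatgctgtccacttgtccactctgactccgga
Pla2g1b, chr12:46812654-46812903, - strand: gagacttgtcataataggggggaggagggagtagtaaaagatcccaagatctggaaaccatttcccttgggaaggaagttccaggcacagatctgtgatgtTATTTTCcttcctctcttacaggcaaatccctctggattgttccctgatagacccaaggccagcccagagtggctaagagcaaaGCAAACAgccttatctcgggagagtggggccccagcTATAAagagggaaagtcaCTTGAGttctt
Lamp3, chr11:94697772-94698021, + strand: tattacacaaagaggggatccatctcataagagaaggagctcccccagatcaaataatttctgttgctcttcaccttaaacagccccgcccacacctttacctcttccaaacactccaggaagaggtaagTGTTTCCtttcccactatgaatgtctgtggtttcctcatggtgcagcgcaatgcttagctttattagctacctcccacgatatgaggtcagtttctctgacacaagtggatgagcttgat
In the windows rich in CpG, capitals mark every CG dinucleotide.
Lpcat1, chr1:31644947-31645196, - strand: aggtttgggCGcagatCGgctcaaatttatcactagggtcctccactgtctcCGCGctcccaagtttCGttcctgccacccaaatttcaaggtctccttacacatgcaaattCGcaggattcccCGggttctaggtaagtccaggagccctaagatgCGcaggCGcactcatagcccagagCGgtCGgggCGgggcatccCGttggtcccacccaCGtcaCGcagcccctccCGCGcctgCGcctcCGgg
Abca3, chr10:13886834-13887083, + strand: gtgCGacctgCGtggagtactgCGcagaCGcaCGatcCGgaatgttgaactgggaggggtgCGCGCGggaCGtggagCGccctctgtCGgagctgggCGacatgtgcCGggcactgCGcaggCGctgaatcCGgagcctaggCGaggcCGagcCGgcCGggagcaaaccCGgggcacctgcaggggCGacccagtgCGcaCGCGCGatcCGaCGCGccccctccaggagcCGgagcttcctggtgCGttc

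The start used for a window is that of a RefSeq transcript. It lay at the outer boundary of the gene model for Sftpa1 and Lpcat1, and inside it for the other 4 genes. Every match given here lay in the printed stretch, and shares are of all 33469 RefSeq windows of 300 bases, which run on 50 bases past the start. CTCAAG was found before Sftpb, at positions -110 and -25 from the start, and before Pla2g1b at -11 on the opposite strand, so in 2 of 6 members, against 15.8% of all windows. TATAA stood at -40 in Sftpb, -39 in Sftpa1 and -29 in Pla2g1b, in 3 of 6 members against 18.4% of all windows. TNTTTNC was found in Sftpb at -98, in Pla2g1b at -149 and -65 and in Lamp3 at -120, which is again 3 of 6, against 54.9% of all windows. TTNCNNNAA (C/EBP factors) was found in Lamp3 (38.2% of all windows) and GGGCGG (the GC box) in Lamp3 and Lpcat1 (33.1%), both on either strand. No match overlapped one to another motif. These are matches of letters, and binding was not measured.

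The ratio of observed to expected CpG separated the 6 promoters as the expression ratio did. It was 0.0678 in Pla2g1b, 0.139 in Sftpb, 0.238 in Lamp3 and 0.342 in Sftpa1, the genes with log2 ratios of 4.54 to 7.11. In Lpcat1 and Abca3, whose log2 ratios were 1.97 and 1.45, the CpG ratio was 0.83 and 1.01. The median over all windows was 0.383. Sftpa1 lay above 45.9% of windows, Lamp3 above 33.7%, Sftpb above 19.4% and Pla2g1b above 9.5%. Lpcat1 lay above 83.8% and Abca3 above 94.9%. The CpG ratios of Sftpa1 and Lamp3 were thus not unusually low. Abca3 had 32 CpG dinucleotides in its window and Lpcat1 had 19, against 1 to 5 in the other windows. Across 12891 measured genes with a window, 3.41% of the 5950 with a CpG ratio under 0.6 were at least 16-fold higher in lung in both arrays, against 0.836% of the 6941 with a higher CpG ratio. The median log2 ratio was -0.23 in either class. This is a description across genes, which are not independent, and the cut at 0.6 was set with the members' values known.

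**Figure D1:**
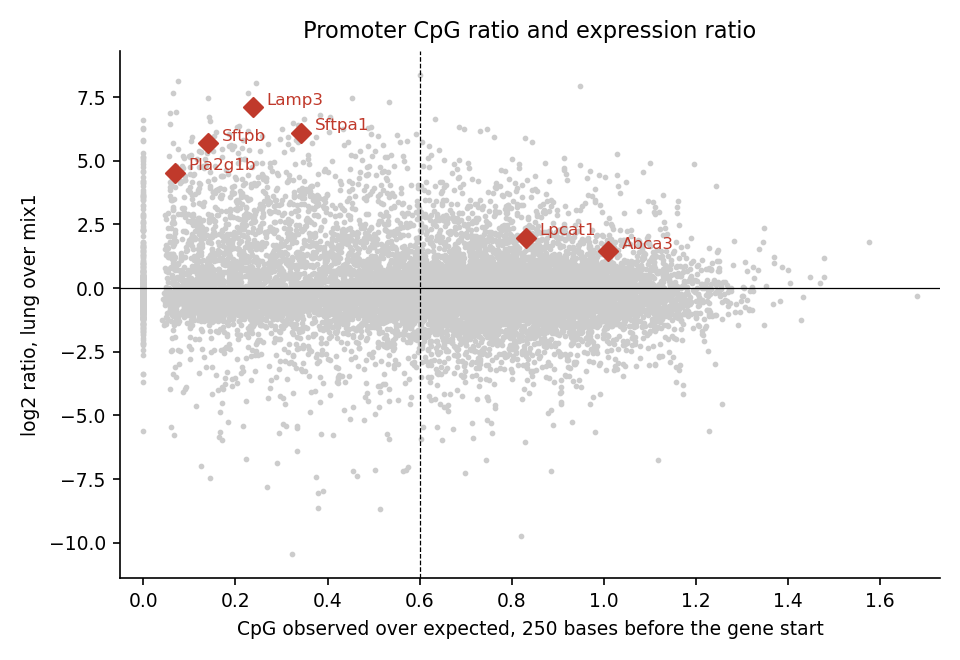
Each grey point is 1 of 12891 named genes, with the observed over expected CpG ratio of the 250 bases before its start on the x axis and its log2 ratio of lung over mix1 (mean of both arrays) on the y axis. Red diamonds are the 6 members with a window, of which Lpcat1 (0.83) and Abca3 (1.01) lie right of the dashed line at 0.6 and the other 4 lie left of it and higher.

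The surfactant protein genes had some of the largest ratios on the arrays, and they were close together. Sftpc, the gene of the hydrophobic peptide SP-C, had log2 ratios of 7.04 in replicate 1 and 7.01 in replicate 2, a mean of 130-fold, and ranked 33 of 15611 genes by the size of the ratio in either direction. Sftpa1 had 6.18 and 6.05 (69.2-fold, rank 78 by size). Sftpd had 5.60 and 5.57 (47.9-fold, rank 143 by size). The arrays differed by at most 0.13 for these 3 genes, each read by a single probe, and no array value of one gene overlapped those of another.

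Sftpb, which encodes SP-B, the surfactant protein without which newborn mice cannot breathe, was read by 2 probes that disagreed in size. One probe gave 6.50 and 6.51, and the other 4.95 and 4.83, although both are annotated to the same transcript. Their distance of 1.62 was larger than the probe range of 81.0% of the 3767 genes with several probes, whose median was 0.72. The gene mean of 5.70 ± 0.04 (SD, n = 2 arrays) places Sftpb between Sftpa1 and Sftpd, but the higher probe would place it above Sftpa1 and the lower one below Napsa. The place of Sftpb among the surfactant proteins thus depended on the probe.

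The non-member genes directly next to the surfactant proteins in the order of lung over mix1 follow, and their cell sources were not tested. Hpgd, which inactivates prostaglandins, lay above Sftpc at 7.30 and Ifitm6 below it at 6.91. The peptide transporter gene Slc15a2 (6.12) and the hyaluronan receptor gene Lyve1 (6.06) flanked Sftpa1. Tc2n (5.70) and Agr3 (5.67) flanked Sftpb, and the somatostatin receptor gene Sstr1 (5.60) and the keratin gene Krt19 (5.58) flanked Sftpd.

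Of the other members, Lamp3 had the largest ratio and Abca3 the smallest. All 5 passed limma's moderated test as higher, as did 32.9% of all genes (82.7% in either direction), and all 5 passed treat, limma's test against a 2-fold change, as did 13.7%. Of their 10 probes taken singly, 9 were higher, against 33.9% of all named probes, and 1 was lower. Counting the surfactant proteins, which settled the sign, 7 of the 9 members were at least 16-fold from 0 in both arrays, as were 3.12% of all genes in either direction (2.14% as higher). All 9 were at least 2-fold from 0 in both arrays, as were 32.3% of all genes in either direction (16.5% as higher). The members were chosen with such results known, so these counts are a description.

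Lamp3 encodes DC-LAMP, a membrane glycoprotein of lamellar bodies that mature dendritic cells also carry. Its gene values were 7.07 in replicate 1 and 7.15 in replicate 2, or 138-fold (rank 32 by size; limma adjusted p 0.00117). Its 3 probes ran from 6.36 to 7.76 in the mean. Replicate 1 was higher for 2 of them, with 7.92 against 7.61 in replicate 2 and 6.43 against 6.29. The third turned the other way, with 6.86 in replicate 1 and 7.53 in replicate 2. The close gene values therefore averaged probes that differed between arrays by up to 0.67, and the lead of Lamp3 over Sftpc (0.08) was smaller than that. Its lowest probe alone would place Lamp3 below Sftpc.

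Napsa encodes napsin A, the aspartic protease that cuts the SP-B and SP-C proproteins. Its probe gave 5.35 and 5.20, or 38.7-fold (5.27 ± 0.10, SD, n = 2; adjusted p 0.00117). It ranked 181 of all genes by size, directly after Sftpd among the members.

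Pla2g1b encodes a secreted phospholipase A2 known best from the pancreas. Its probe gave 4.70 in replicate 1 and 4.38 in replicate 2, or 23.3-fold (adjusted p 0.00151). This SD of 0.23 was the largest of the 9 genes and above that of 87.3% of all genes. The ratios still lay apart from those of Napsa above it and of Lpcat1 below it.

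Lpcat1 encodes the acyltransferase that remodels phosphatidylcholine into its disaturated surfactant form. Its 2 probes gave 2.70 and 2.49, and 1.50 and 1.19, in replicates 1 and 2. The gene mean was 1.97 ± 0.18 (SD, n = 2), or 3.92-fold, with an adjusted p of 0.00296. Both probes were higher in lung in both arrays, and the array difference had the same direction in both.

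Abca3 encodes the transporter that moves phospholipid into lamellar bodies, and its probes did not give a single answer. One gave 3.21 in both arrays (9.27-fold) and another 1.57 and 1.62 (3.02-fold). The third gave -0.47 in replicate 1 and -0.41 in replicate 2, lower in lung. In a fit on single probes each passed the threshold, with adjusted p of 0.0011, 0.00129 and 0.00654, the last one as lower. The highest and the lowest probe, both annotated to the same predicted transcript, were 3.66 apart, a wider range than in 97.2% of genes with several probes. The gene mean of 1.45 ± 0.02 (SD, n = 2; adjusted p 0.00139) has a small SD because each probe repeated closely between arrays, and that SD holds none of the spread between probes. Probes on opposite sides of 0 were found in 31.0% of genes with several probes.

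**Figure D2:**
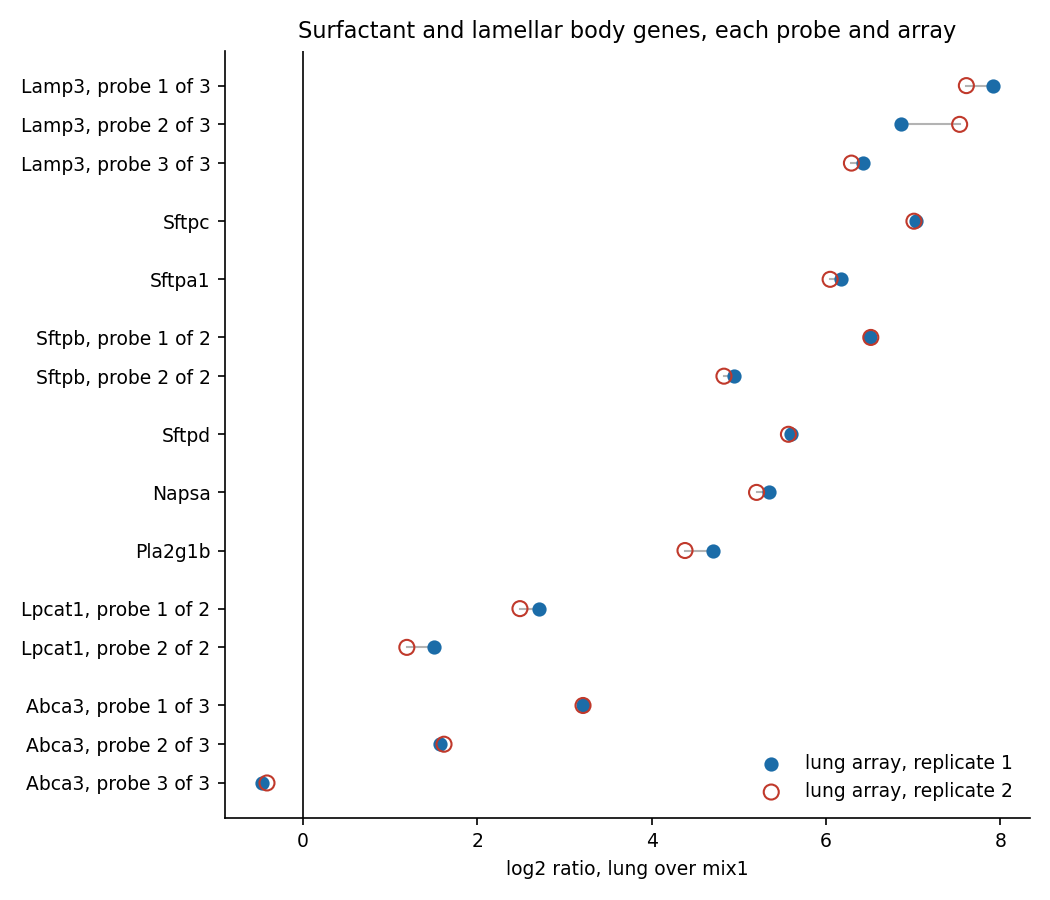
Log2 ratios of lung over mix1 on the x axis for each of the 15 probes of the 9 members, with replicate 1 as filled blue and replicate 2 as open red circles. Arrays lie close together for most probes, while probes of Abca3 spread from -0.44 to 3.21 and one probe of Abca3 lies left of 0.

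Differences among the members were far larger than those between arrays. The SD of the 9 gene means was 2.02 on the log2 scale, and the median SD of a member between arrays was 0.0547. The members ranged over 5.65 log2 units, from 1.45 to 7.11, with a median of 5.58. Their order was the same in both arrays, and no neighbours in that order overlapped. The narrowest gaps between array values of neighbours were 0.0299 between Lamp3 and Sftpc and 0.0747 between Sftpb and Sftpd, both smaller than the distance between probes of Lamp3 or Sftpb, so the order of these neighbours did not hold beyond the spread of their probes. The same holds for Sftpa1 and Sftpb (gap 0.32), since the higher probe of Sftpb (6.51) lay above Sftpa1 (6.11). It also holds for Lpcat1 and Abca3 (gap 0.37). The highest probe of Abca3 (3.21) lay above both probes of Lpcat1, and the next (1.59) above the lower one (1.34). The widest gap, 2.28, lay between Pla2g1b and Lpcat1.

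Replicate 1 gave the higher ratio for 7 of the 9 members, with a median difference of 0.05 and differences from -0.08 to 0.32. The same lean was seen elsewhere: replicate 1 was higher for 73.1% of the 334 genes at least 16-fold higher in both arrays, with a median difference of 0.09, against 48.6% of all genes. Replicate 1 was higher for 8 of 11 other type 2, 4 of 6 type 1, 6 of 7 airway, 3 of 5 endothelial, 3 of 6 macrophage and 1 of 6 stromal markers. Their part in the members' differences was not tested.

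**Figure D3:**
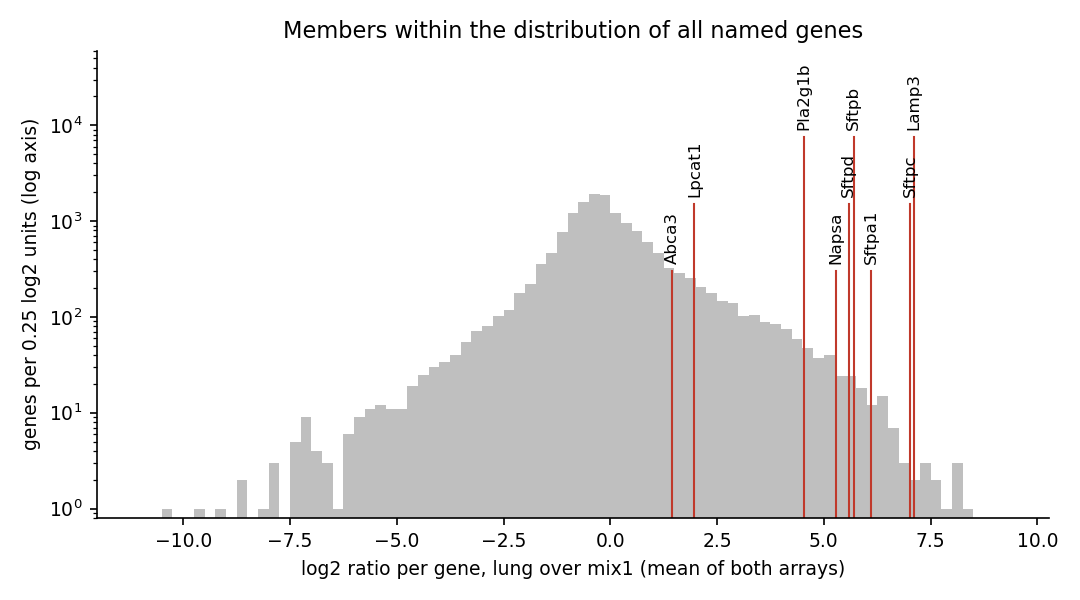
Histogram of the log2 ratio of lung over mix1 for all 15611 named genes (mean of both arrays, bins of 0.25, counts on a log axis), with the 9 members as red lines whose heights only separate the labels. Lpcat1 and Abca3 lie on the shoulder of the distribution and the other 7 in its right tail.

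The 5 non-member genes most like the median member profile (5.60 in replicate 1 and 5.57 in replicate 2), by Euclidean distance over the 2 arrays, were Sult1a1 (distance 0.0238), the tight junction gene Ocln (0.0323), Krt19 (0.0914), Adgrf5 (0.111) and Cyp2b2 (0.128). With 2 arrays this is likeness of size alone. Adgrf5 encodes a receptor on type 2 and endothelial cells that limits the surfactant pool in mice.

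In RefSeq, Sftpa1 and Sftpd stand on either side of Mbl1, the gene of another collectin, mannose-binding lectin A, with no other protein-coding gene between. Mbl1 had ratios of 0.77 and 0.62, under 2-fold. Of the 17 measured protein-coding genes nearest to a member, 0 were at least 16-fold higher in both arrays, against 2.14% of all genes, a share too small for 17 genes to show a difference. Their median was -0.11, against -0.22 for all genes. Abca17 beside Abca3 had a mean (1.57) near that of its neighbour (1.45). Both are averages of unlike values: Abca17 had 2.01 in replicate 1 and 1.13 in replicate 2, and the probes of Abca3 ran from -0.44 to 3.21. The highest, named after their values were seen, were St3gal5 near Sftpb (1.91) and Myh14 near Napsa (1.87). Each lay 2 protein-coding genes away from its member, not directly next to it.

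Other genes of the surfactant system were followed in 15 lists by step or by family, chosen by function. The choice was made with earlier results of these data known, so the shares below are a description. Without the members the lists held 179 genes. Of these, 81 rose above mix1 in lung (45.3%, against 32.9% of all genes), 74 fell below it (41.3%, against 49.7%) and 24 did not pass. The list counts that follow are to be read against the same 32.9% and 49.7%. Their median was 0.11, against -0.22 for all genes, and subtracting array medians gave 91 and 58. A 2-fold difference in both arrays was reached upward by 42 of them (16.5% of all genes) and downward by 24 (15.8% of all genes). Of the 179, 3 (1.68%) had a ratio above that of Sftpd in the order of lung over mix1, against 0.551% of all genes: Ces1d, Foxa2 and Adgrf5.

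Transcription factors of type 2 cells and of surfactant genes were mostly higher. Of 18 measured, 14 were higher (77.8%) and 2 lower (median 0.92), and 15 and 1 with array medians subtracted, where Thra no longer passed. With the median probe, and also with the probe nearest 0, 10 were higher and 3 lower. Foxa2, a forkhead factor of endoderm, had 5.91 and 5.55 (53.0-fold), Gata6 3.36 and 3.25, and Tfcp2l1 3.60 and 2.93, although the probes of Tfcp2l1 lay at 0.68 and 5.85. Cebpd (-0.51 ± 0.04, SD, n = 2) and the thyroid hormone receptor gene Thra (-0.33 ± 0.02) were lower. Nkx2-1 and Etv5, both required for type 2 cell identity in mice and singled out here after their values were seen, were higher by little: Nkx2-1 had 0.64 and 0.85 (1.68-fold; adjusted p 0.0103) and Etv5 0.57 and 0.54. Among the factors read by a single probe, the ratios of Foxa2 and Nkx2-1 thus lay far apart, and single probes leave the size of either uncertain.

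Genes of lysosomal and aspartic proteases, listed for the proprotein route, were divided. Which of them, apart from Napsa, cut surfactant proproteins was not tested. Besides Napsa, 9 were measured, of which 5 were higher and 4 lower (median 0.25). Cathepsin E (Ctse, 4.75 ± 0.12), cathepsin S (Ctss, 2.19 ± 0.01) and cathepsin C (Ctsc, 1.53 ± 0.01) were higher. Cathepsin L (Ctsl, -1.99 ± 0.02), cathepsin B (Ctsb, -1.18 ± 0.01) and progastricsin (Pgc, -0.98 ± 0.03) were lower. Cathepsin H, which acts with napsin A on SP-B, was not analysed here.

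The machinery that builds lysosome-related organelles had mostly small ratios on both sides of 0. Of 22 genes, 9 were higher and 12 lower (median -0.18), and 9 and 9 with array medians subtracted (median 0.00). Rab27a, a GTPase of organelle transport, was the highest at 2.75 ± 0.05. The flippase gene Atp11a (0.95 ± 0.05) and Rab38 (0.72 ± 0.02), whose loss in rats enlarges lamellar bodies, followed. Their order depended on the probe, with probes at 0.14 and 1.75 for Atp11a and at 0.53 and 0.91 for Rab38. Hps1 (-1.59 ± 0.13, with probes at -2.19 and -0.99), mutated in Hermansky-Pudlak syndrome, Rab32 (-1.37 ± 0.08) and the adaptor subunit gene Ap3s1 (-1.09 ± 0.01) were lower. These 3 were at least 2-fold lower in both arrays.

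Genes of exocytosis and its stimuli lay on both sides of 0, with 6 higher and 6 lower of 15 (median 0.11). The counts were 8 and 6 with array medians subtracted. With the median probe they were 5 and 8, and with the probe nearest 0 they were 4 and 8. The vesicle SNARE gene Vamp8 (2.68 ± 0.10), the adenosine receptor gene Adora2a (2.30 ± 0.17, with probes at 1.12 and 3.49) and Vamp2 (0.36 ± 0.03, with probes from -0.19 to 1.07) were the highest that passed. S100a10 (-1.44 ± 0.05), its partner annexin A2 (Anxa2, -1.07 ± 0.05) and the fusion ATPase gene Nsf (-0.97 ± 0.09) were the lowest.

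Genes of phosphatidylcholine and phosphatidylglycerol synthesis had ratios on both sides of 0. Apart from Lpcat1, 27 were measured, with 10 higher and 14 lower (median -0.16), and 11 and 10 with array medians subtracted (median 0.03). The 10 higher became 6 with the median probe and 6 where every probe had to pass. Slc44a4, of the choline transporter-like family, stood out at 4.68 ± 0.09. Lpin2 (1.93 ± 0.06) and Cds1 (1.90 ± 0.02, with probes from 0.45 to 4.38), both of the route through phosphatidic acid, followed. Pcyt1b (-2.03 ± 0.19), Lpcat3 (-1.78 ± 0.03) and Pemt (-1.53 ± 0.07) were lower. Pcyt1a, the gene of the rate-limiting enzyme of phosphatidylcholine synthesis and named after its values were seen, had 0.30 and 0.26 with probes at -0.21 and 0.77.

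Among genes of fatty acid supply, 5 of 21 were higher (23.8%) and 11 lower (52.4%, near the share of all genes), with a median of -0.35, and 8 and 9 with array medians subtracted. The fatty acid receptor gene Cd36 (3.96 ± 0.04), which endothelium and macrophages also express, the lipase gene Pnpla2 (1.51 ± 0.10) and Acsl5 (1.06 ± 0.05) were higher. The elongase gene Elovl6 had -4.33 and -4.35, 20.3-fold lower. The desaturase genes Fads2 (-2.92 ± 0.12) and Scd2 (-1.51 ± 0.14, with probes from -2.41 to -0.62) were also lower. All 6 markers of fibroblasts and marrow stroma were lower too (-7.25 to -1.01), and the part of stromal cells in this list was not tested.

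Genes of surfactant breakdown and clearance were mostly higher. Besides Pla2g1b, 18 were measured, with 13 higher (72.2%) and 4 lower (median 1.12). Ces1d, a carboxylesterase gene, had 6.17 and 6.13 (71.0-fold), Adgrf5 had 5.64 and 5.67, and Abcg1, the lipid exporter gene of alveolar macrophages, had 4.60 and 4.58. The scavenger receptor gene Msr1 (-2.49 ± 0.07), the cytosolic phospholipase gene Pla2g4a (-1.02 ± 0.04) and Pla2g6 (-0.50 ± 0.03) were lower. Of 6 macrophage markers, 4 were higher and 2 lower (median 1.21, range -2.49 to 3.72), Marco and Msr1 standing in both lists, and their part in this list was not tested.

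The collectin relatives and the receptors that bind SP-A or SP-D did not share the ratios of Sftpa1 and Sftpd. Of 13 measured, 3 were higher and 6 lower (median -0.88). The higher were the inhibitory receptor gene Sirpa (1.41 ± 0.04), Mbl1 (0.70 ± 0.11) and Tlr4 (0.39 ± 0.004). Ckap4 (-3.02 ± 0.01), Cd14 (-2.51 ± 0.01) and Lrp1 (-2.20 ± 0.04, with probes at -3.03 and -1.36) were the lowest. Of the other collectin genes, Colec12 was lower (-1.98 ± 0.07, with probes at -2.59 and -1.38). Colec10, Colec11 and Mbl2 did not pass, with means of -0.25, -0.98 and -0.31 and arrays that differed by up to 1.55 for Colec11.

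**Figure D4:**
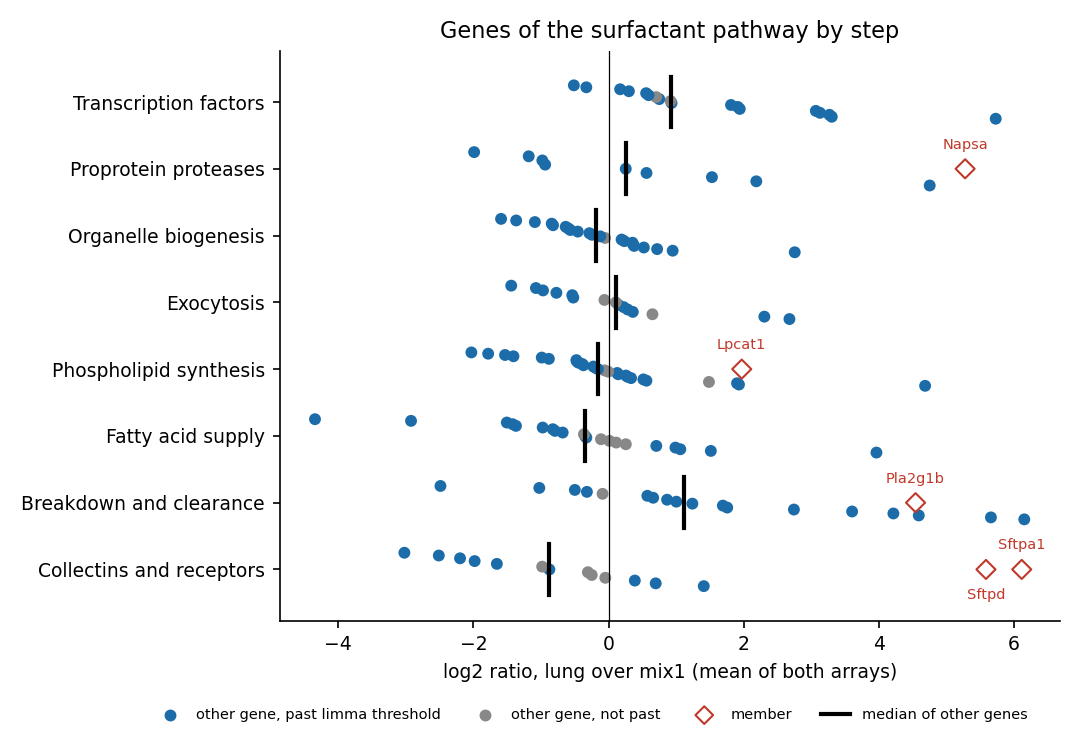
Log2 ratios of lung over mix1 (mean of both arrays) for genes of the surfactant system, 1 row per list. Filled points are other genes (blue past limma's threshold, grey not), red diamonds the members and black bars the median of the other genes, and vertical offsets within a row only separate points. Medians lie between -0.88 for collectins and receptors and 1.12 for breakdown and clearance, and Napsa, Sftpa1 and Sftpd lie right of all other genes of their rows.

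Set beside their own families, 6 of the 7 members compared had the gene mean farthest from 0. Lamp3 had 7.11, against 0.72 ± 0.04 for Cd68, -0.26 ± 0.09 for Lamp5, -0.63 ± 0.01 for Lamp2 and -0.82 ± 0.07 for Lamp1. LAMP1 and LAMP2 are general lysosomal membrane proteins. Sftpc carries a BRICHOS domain, shared with Itm2b (1.31 ± 0.05), Gkn2 (1.07 ± 0.03) and Itm2a (0.66 ± 0.04), which were higher, and with Cnmd, Gkn1, Itm2c and Tnmd, which were lower, at -0.24, -0.79, -1.06 and -4.23. Sftpb belongs to the saposin-like proteins, of which Aoah had 3.38 ± 0.43 and Smpd1, Psapl1 and Psap had -0.28, -0.58 and -0.85. In these 3 families the members differed by 2.32 log2 units or more from every relative measured, although the lower probe of Sftpb differed from Aoah by 1.51. Of the relatives given as lower, Lamp5, Cnmd and Smpd1 no longer passed with array medians subtracted.

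For the enzymes the distance to the next relative was smaller. Napsa (5.27) was followed among pepsin-family proteases by Ctse (4.75), Bace2 (1.09) and Ctsd (0.56). Bace1 (0.53) did not pass, and Pga5 (-0.81) and Pgc (-0.98) were lower. Pla2g1b had 4.70 and 4.38, against 4.24 and 4.18 for Pla2g2a, which releases arachidonic acid in inflammation, and Pla2g2d (2.50), Pla2g10 (1.00) and Pla2g3 (0.34) were also higher. Pla2g12a (-0.84) was lower, and Pla2g2f (0.37), Pla2g2e (0.11), Pla2g5 (-0.09) and Pla2g2c (-0.12) did not pass. Of 9 such relatives 4 were higher and 1 lower, and 6 and 1 with array medians subtracted. Lpcat1 (1.97) lay above Mboat2 (1.15) and above 6 acyltransferase genes that were lower: Mboat1 (-0.27), Lpcat4 (-0.37), Lpcat2 (-0.47), Lpcat2b (-0.92), Mboat7 (-0.93) and Lpcat3 (-1.78). Mboat1 and Lpcat4 no longer passed with array medians subtracted. The probes of Lpcat1 lay at 1.34 and 2.60 and those of Mboat2 at 0.55 and 1.75, so their order depended on the probe. By its lower probe Lpcat1 would also lie nearer 0 than Lpcat3.

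Abca3 was the exception, with 4 of its relatives above it. In ABC subfamily A, 8 of 11 other genes were higher and 2 lower (median 1.10). Abca5 had 4.90 ± 0.01, Abca8 3.32 ± 0.04, Abca7 1.70 ± 0.01 and Abca17, its neighbour in the genome, 1.57 ± 0.62, against 1.45 for Abca3. Abca9 (1.22), Abca13 (1.10), the cholesterol exporter gene Abca1 (0.87) and Abca2 (0.68) followed, and Abca12 (-0.21) and Abca4 (-0.60) were lower, of which Abca4 alone passed with array medians subtracted. The place of Abca3 depended on its probes: at 3.21 its highest probe would lie next below Abca8, and at -0.44 its lowest would lie between Abca15 (-0.23, not past the threshold) and Abca4.

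**Figure D5:**
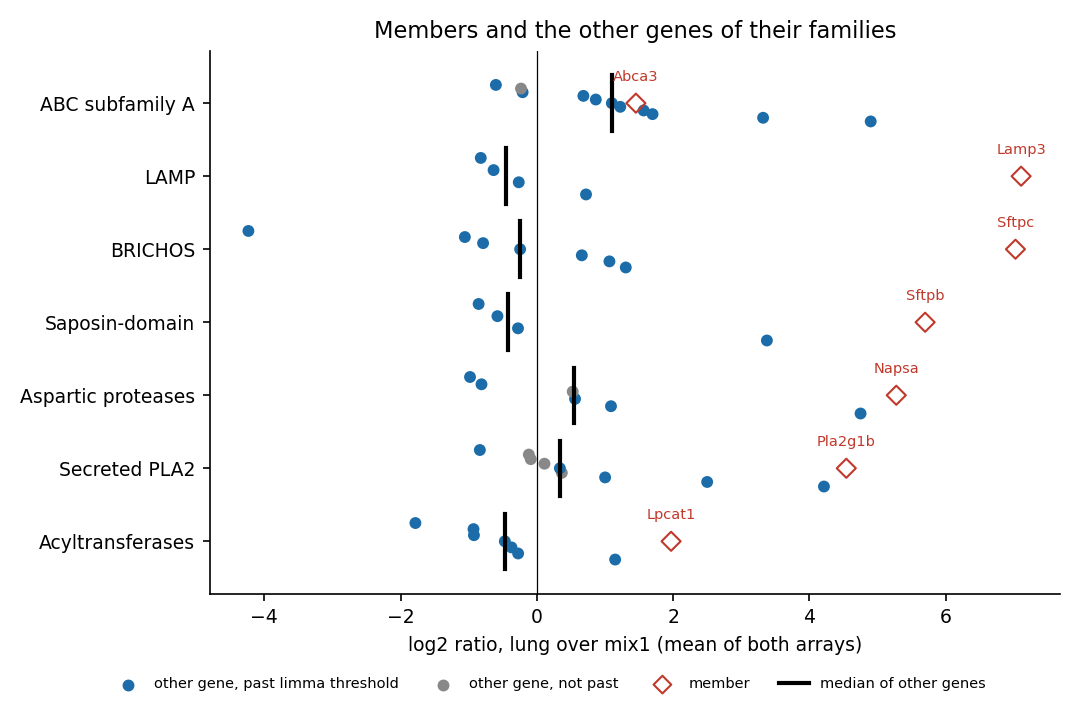
Log2 ratios of lung over mix1 (mean of both arrays) for 7 members (red diamonds) and the other measured genes of their families (filled points, blue past limma's threshold and grey not), with black bars for the median of the other genes and vertical offsets that only separate points. Lamp3, Sftpc and Sftpb stand clear of their relatives, and Abca3 lies within its family.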

How the data were processed

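Two-channel Agilent arrays compared lung RNA (Cy3) with mix1 RNA (Cy5), per the labels. RNA was extracted with TRIzol and cleaned on silica columns, per the labels' protocols. The authors' deposited values are 1 log2 ratio per probe and array. Agilent Feature Extraction is named, per the submitters' processing notes, and the sources used here give no version, background correction or dye normalization. The log base is not stated: values from -11.74 to 9.09 would exceed a scanner's range in base 10, so base 2 was taken. Array medians were -0.16 and -0.21, so no centring on the median was seen, and their direction is likely and not stated.

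GEO's platform annotation names 20417 of 40012 probes, each with 1 symbol. Symbols were updated through RefSeq (assembly GRCr8) by accession for 16987 probes, by symbol for 3035 and by synonym for 387, and 8 were kept. Probes were averaged per gene (15611 genes, 3767 with several probes). The 3 probes of Abca3 carry predicted transcripts and were matched by symbol.

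The gene values went into limma 3.58.1 under R 4.3.3 (intercept, eBayes, Benjamini-Hochberg over all genes, threshold 0.05), with 1 residual and 1.28 prior degrees of freedom. The script was tested on simulated data. Precision is limited by the number of arrays. Members, lists, motifs and tests were chosen with earlier results of these data known. Named genes are all members, the 3 highest and 3 lowest past the threshold per list, all family members, and genes nearest in rank or profile; others are named as exceptions. Alternatives were other centring, scaling, probe summaries, thresholds and tests, and leaving out each array.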

Additional observations from a re-analysis of the deposited data

How the results depend on the processing

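The count of 5 higher among the 5 members tested held with array medians subtracted, quantile normalization, the median probe, robust eBayes, treat against 2-fold and an adjusted p under 0.01. It was 4 with the probe nearest 0, where Abca3 lay at -0.44 and turned direction, and 4 where every probe had to pass. The median log2 ratio of all 9 members was 5.58, 5.77 with array medians subtracted, and 5.27 both with the median probe (the lower of the middle probes) and with the probe nearest 0. Leaving out either array gave medians from 5.57 to 5.60, with no test possible on 1 array. Of 179 related genes, 155 passed, 81 higher and 74 lower, and with treat 55 passed, 34 higher and 21 lower. Their median of 0.11 turned to -0.12 with the median probe and to -0.053 with the probe nearest 0. Treat moved 30 of 42 list counts by over 1.5 times, an adjusted p under 0.01 moved 5, centring 3, the median probe 3, and the probe nearest 0 and the rule on every probe 2 each. At 0.01 the genes higher were 5 for phospholipid synthesis (10 at 0.05), 5 for organelle biogenesis (9), 3 for exocytosis (6) and 2 for secreted phospholipases (4). No paired analysis was possible because the arrays form 1 group. Scanner signals were not used here, so signal over background is unknown.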
